A study of Homo sapiens with 2 samples.

Results

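The HOX genes of the A2780 ovarian carcinoma cell line changed by cluster. In the dual resistant line A2780CBNDXL, 6 HOXB genes were lower than in the co-cultured control and 6 HOXD genes were higher. Over all genes measured there, 9.12% were lower and 7.69% higher. The lowest mean log2 ratio was -5.87, for HOXB6. HOXD9, HOXD10 and HOXD11, the HOXD genes measured in both channels, stood at 4.20 to 4.78. HOXB8 was measured through the control alone, and HOXD3, HOXD8 and HOXD13 through the resistant line alone, which fixed their direction. In the carboplatin resistant line A2780CBN, HOXB5, HOXB6, HOXB8 and HOXB9 were also lower, beside 4.56% of all genes, and no HOXD gene was called. HOXB8 was measured through the control alone there too. The fall was smaller there for HOXB5, HOXB6 and HOXB9, while the arrays of the lines overlapped for HOXB8. The HOXA and HOXC clusters held 1 called gene each, both in A2780CBNDXL and both measured through the resistant line alone. The members are all array probes with a gene name of HOXA, HOXB, HOXC or HOXD followed by a digit, which are 53 of the 41000 probes and 40 of the 30238 gene names. They cover 39 protein-coding genes and the antisense RNA HOXA11AS, with 12 gene names in HOXA, 10 in HOXB, 9 in HOXC and 9 in HOXD. One probe that the array names HOXA10 carries the accession and position of a HOXC6 homeodomain fragment and was counted as HOXC6.

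A2780 cells were selected in rising doses of carboplatin (A2780CBN, to 22.2 µM) or of carboplatin and docetaxel together (A2780CBNDXL, for which the labels give 8.02 µM of the combination). In the study's text the latter figure is an IC50 and not the final dose. The control in both comparisons is named A2780CC, cells of the same parent kept in culture alongside without drug, and the labels do not say whether both comparisons used the same control culture. Each line is 1 RNA sample, pooled from 3 isolations, hybridized together with control RNA to 4 two-colour arrays, of which arrays 1 and 3 have forward and arrays 2 and 4 reverse labelling, a pair on each of 2 slides. The arrays repeat 1 sample, so all SDs here (n = 4 arrays) cover labelling and hybridization error only, no test across cultures was possible, and no p-value is given. Fewer cells with a transcript and less RNA per cell cannot be told apart in such samples.

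HOX proteins are transcription factors that bind DNA through the homeodomain. Their genes lie in 4 clusters, in which the order of the genes follows the order of their use along the body axis, and genes with the same number in different clusters are paralogues. HOX proteins bind DNA together with the TALE proteins PBX and MEIS. The clusters are kept silent by Polycomb complexes and active by MLL and trithorax complexes, and they respond to retinoic acid. In the embryo HOXA9, HOXA10, HOXA11 and HOXA13 pattern the Müllerian duct, from which the oviduct, uterus and upper vagina arise.

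The sequences below come from the array itself and from RefSeq (GRCh38.p14). The first pair are the 60-base probes for the homeodomains of HOXB6 and HOXC6, printed because the homeodomain probes are the members most alike in sequence, sharing 50 bases, and because the HOXC6 probe is the misnamed one. Capitals mark the bases that differ between the probes or overhang at the offset of 1 base. The HOXB6 probe lies at chr17:44028861-44028920 on the minus strand and the HOXC6 probe at chr12:52709820-52709879 on the plus strand (NCBI36).
HOXB6 homeodomain probe: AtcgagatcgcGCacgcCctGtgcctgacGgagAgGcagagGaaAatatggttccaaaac
HOXC6 homeodomain probe: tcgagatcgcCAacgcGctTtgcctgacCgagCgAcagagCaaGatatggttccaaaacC

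The next set are promoters of HOXD genes, from 250 bases before to 50 bases after the start, all on the plus strand of chromosome 2, with each CG dinucleotide in capitals. HOXD10 and HOXD11 are shown as genes measured in both channels of the A2780CBNDXL arrays, HOXD8 as a gene measured there mainly in the resistant line, and HOXD12 as the neighbour that stayed below background. Their positions are chr2:176129455-176129754 for HOXD8, chr2:176116528-176116827 for HOXD10, chr2:176107030-176107329 for HOXD11 and chr2:176099545-176099844 for HOXD12.
HOXD8 promoter: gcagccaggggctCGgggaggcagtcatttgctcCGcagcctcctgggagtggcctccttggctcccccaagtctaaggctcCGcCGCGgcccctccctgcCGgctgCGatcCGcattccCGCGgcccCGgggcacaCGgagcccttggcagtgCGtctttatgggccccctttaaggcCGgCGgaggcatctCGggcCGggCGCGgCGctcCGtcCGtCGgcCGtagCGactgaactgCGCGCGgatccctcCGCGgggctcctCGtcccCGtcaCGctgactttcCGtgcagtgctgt
HOXD10 promoter: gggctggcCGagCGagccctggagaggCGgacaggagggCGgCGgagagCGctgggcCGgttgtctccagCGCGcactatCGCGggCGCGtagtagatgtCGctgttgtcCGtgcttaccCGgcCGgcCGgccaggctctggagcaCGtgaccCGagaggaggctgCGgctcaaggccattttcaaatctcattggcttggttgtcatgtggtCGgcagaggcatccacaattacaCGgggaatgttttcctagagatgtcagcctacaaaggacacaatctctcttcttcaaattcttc
HOXD11 promoter: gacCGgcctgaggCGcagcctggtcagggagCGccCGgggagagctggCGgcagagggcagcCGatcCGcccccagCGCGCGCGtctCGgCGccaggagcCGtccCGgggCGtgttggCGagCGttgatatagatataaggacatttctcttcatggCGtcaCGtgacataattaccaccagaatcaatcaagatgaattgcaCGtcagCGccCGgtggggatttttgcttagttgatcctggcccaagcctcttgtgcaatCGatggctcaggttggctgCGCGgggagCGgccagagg
HOXD12 promoter: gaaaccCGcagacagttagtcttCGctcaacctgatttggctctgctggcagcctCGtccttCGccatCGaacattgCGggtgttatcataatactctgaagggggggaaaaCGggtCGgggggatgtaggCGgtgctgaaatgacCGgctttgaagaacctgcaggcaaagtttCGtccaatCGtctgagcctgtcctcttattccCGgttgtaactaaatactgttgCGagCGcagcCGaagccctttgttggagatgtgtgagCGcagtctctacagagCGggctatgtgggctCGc
These windows held 34 CG dinucleotides for HOXD8, 23 for HOXD10, 27 for HOXD11 and 19 for HOXD12. The median of the 8 HOXD promoters in the table was 24.5, and that of all 35116 promoters was 14. The lowest of the HOXD promoters was HOXD4 with 4, and the highest was HOXD1 with 36, and neither gene was above background in either line. The letters TATAAA, searched on both strands, occurred in the HOXD13 window and in 11.5% of all promoters. The PBX-HOX motif TGATTNAT, searched likewise and sharing no stretch with TATAAA, occurred in the HOXD11 window and in 2.82% of all promoters.

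A gene was called when its resistant over control log2 ratio had a mean of at least 1 in size (2-fold) and the same sign on all 4 arrays, and when its probe was well above background in the resistant or in the control channel of every array. In A2780CBN 16 HOX genes passed that background filter, and in A2780CBNDXL 21 did. The other HOX genes had no measured ratio, and 16 of the 40 had no probe above background in either channel of any of the 8 arrays. These were HOXA2, HOXA4, HOXA5, HOXA7, HOXA9, HOXA11, HOXA11AS, HOXA13, HOXB1, HOXC4, HOXC11, HOXC12, HOXC13, HOXD1, HOXD4 and HOXD12. In A2780CBN 4 of the 16 measured HOX genes were lower (25.0%), beside 4.56% of all 18186 genes measured, and 0 were higher, beside 7.92%. In A2780CBNDXL 6 of 21 were lower (28.6%), beside 9.12% of all 17399 genes measured, and 8 were higher (38.1%), beside 7.69%. HOXB8 passed the filter through the control alone, and HOXA10, HOXD3, HOXD8 and HOXD13 passed it through the resistant line alone, so the filter fixed their direction. HOXC5 in A2780CBNDXL also passed it through the resistant line alone. Its control was above background on 3 of 4 arrays, so its direction follows largely from the filter. With both channels required above background, 3 of 15 HOX genes were lower and 0 higher in A2780CBN, and 5 of 15 were lower and 3 higher in A2780CBNDXL. Under that filter 1521 of all 16885 genes measured in A2780CBN were called, in either direction. The matching count over all genes in A2780CBNDXL is not given here.

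**Figure D1:**
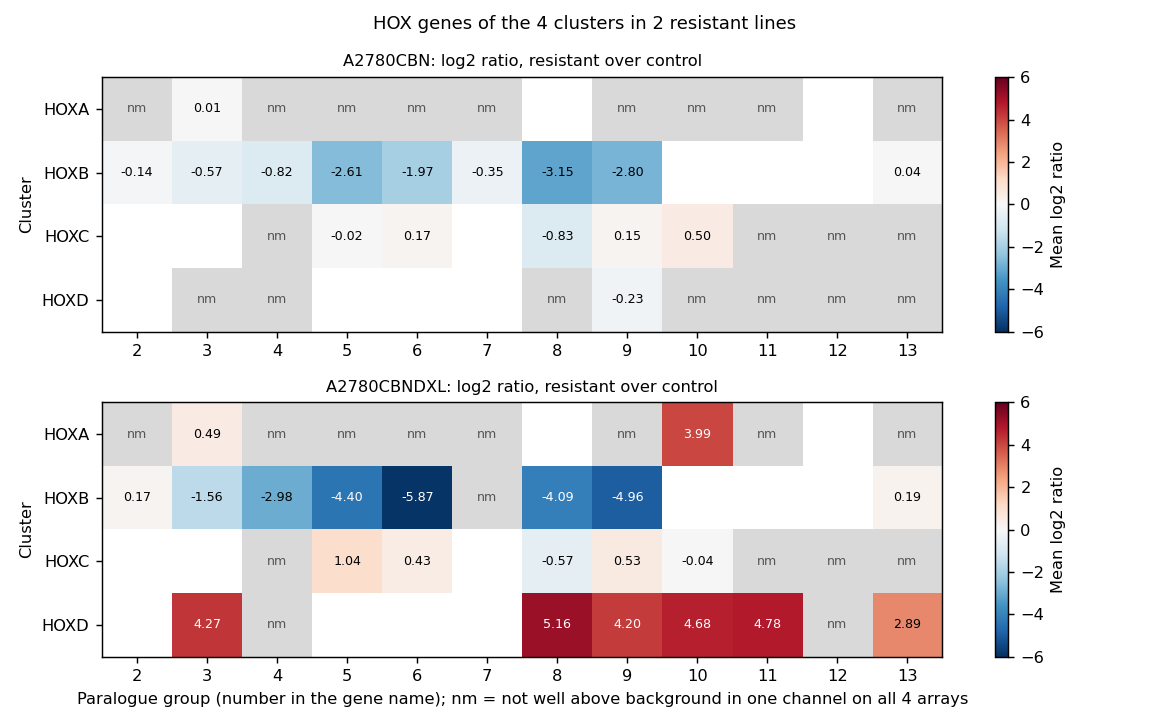
Mean log2 ratio of resistant line over control for the protein-coding HOX genes, by cluster (rows) and paralogue group from 2 to 13 (columns), in A2780CBN (upper grid) and A2780CBNDXL (lower grid). Blue is lower and red is higher than the control, grey cells did not pass the background filter, and white cells hold no gene; HOXB3 to HOXB9 are blue in both grids where measured, and the HOXD row holds 1 value, -0.23, in the upper grid and 6 in the lower, of which HOXD9, HOXD10 and HOXD11, at 4.20 to 4.78, had controls above background on all arrays.

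The HOXB probes span chr17:43962915-44158957 (NCBI36, minus strand), which is 196 kb with the distant HOXB13 included. The called genes form a run from HOXB3 to HOXB9, which HOXB7 interrupts. The genes at both ends of the cluster were not called. HOXB2 had a log2 ratio of -0.14 ± 0.22 (SD, n = 4 arrays) in A2780CBN and 0.17 ± 0.51 in A2780CBNDXL. HOXB13, a prostate and hindgut gene, had 0.04 ± 0.21 and 0.19 ± 0.24, with a second probe below background. HOXB1, a hindbrain gene, was below background on all arrays. The median log2 ratio of the 9 measured HOXB genes in A2780CBN was -0.82, beside -0.06 for all genes, and that of the 8 measured in A2780CBNDXL was -3.53, beside 0.04.

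HOXB9, the most 5′ gene of the run, had log2 ratios of -2.96, -2.63, -2.95 and -2.65 on the 4 arrays of A2780CBN. On the 4 arrays of A2780CBNDXL they were -4.85, -5.14, -4.68 and -5.18. The lines did not overlap, and the means of -2.80 ± 0.18 and -4.96 ± 0.24 are 6.95-fold and 31.2-fold lower than the control.

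HOXB6 showed the deepest fall in A2780CBNDXL. Its log2 ratios were -2.05, -1.83, -2.28 and -1.72 in A2780CBN. They were -5.41, -6.11, -5.59 and -6.38 in A2780CBNDXL, with all 4 arrays below the lowest of A2780CBN. The means were -1.97 ± 0.25 (3.91-fold lower) and -5.87 ± 0.45 (58.6-fold lower). The HOXB6 homeodomain probe printed above gave -1.55 ± 0.13 and -2.81 ± 0.11, the same directions at smaller size. The HOXC6 homeodomain probe, alike in 50 bases, gave 0.17 ± 0.44 and 0.43 ± 0.55, and the part of shared sequence in these values was not tested.

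HOXB5 had log2 ratios of -2.52, -2.72, -2.51 and -2.70 in A2780CBN. In A2780CBNDXL they were -4.39, -4.58, -4.26 and -4.38, again without overlap. The means were -2.61 ± 0.12 (6.12-fold lower) and -4.40 ± 0.13 (21.1-fold lower).

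HOXB4, known for the expansion of blood stem cells, was called in A2780CBNDXL alone. Its arrays read -2.99, -2.98, -2.93 and -3.01 there and -0.88, -0.82, -0.89 and -0.69 in A2780CBN. All 8 were below 0, and the means were -2.98 ± 0.04 (7.87-fold lower) and -0.82 ± 0.09. A second and dim HOXB4 probe, with mean signals of 39.0 to 73.5, gave 0.71 ± 0.16 in A2780CBNDXL and -0.21 ± 0.15 in A2780CBN, so the probes disagree on direction in the dual resistant line.

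HOXB3 read -1.13, -1.92, -1.14 and -2.02 in A2780CBNDXL, with a mean of -1.56 ± 0.48. In A2780CBN it read -0.81, -0.33, -0.94 and -0.19, with a mean of -0.57 ± 0.36 that missed 2-fold. The forward labelled arrays lie together and the reverse labelled arrays lie together, so the spread follows the labelling direction. A second HOXB3 probe was also called in A2780CBNDXL (-1.02 ± 0.22), and in A2780CBN it gave -0.57 ± 0.66, while the remaining, dim probe gave -0.11 ± 0.55 and -0.26 ± 0.09 in these lines and passed the filter in neither. With the control channel of the other line, the HOXB3 ratio in A2780CBNDXL was -0.74 ± 0.11 and was no longer called.

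HOXB8 was above background in the control alone, on all 4 arrays of each line. It was at least 3.92-fold lower in A2780CBN and at least 5.68-fold lower in A2780CBNDXL, where the measured log2 ratios were -3.15 ± 0.70 and -4.09 ± 0.55. Control signals were 82.6 to 97.7 on the A2780CBN arrays and 95.5 to 149 on the A2780CBNDXL arrays. Under the background correction that adds an offset of 50, the ratios shrank to -0.39 and -0.60, below the limit.

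For HOXB7 the probes disagreed. The brighter one read -0.35 ± 0.29 in A2780CBN and -0.21 ± 0.46 in A2780CBNDXL, where it was above background on 3 of the 4 arrays. The other read -1.05, -2.75, -1.35 and -1.60 in A2780CBN. In A2780CBNDXL it read -3.77, -3.70, -4.02 and -2.70. It was above background in the control on all 8 arrays, but in the resistant line on 2 of 4 arrays of A2780CBN and 1 of 4 of A2780CBNDXL. By this probe HOXB7 would join the run of lower genes in both lines, at -1.69 ± 0.74 and -3.55 ± 0.58. The probe passed the filter through the control alone, so its direction follows from the filter and its sizes rest partly on background. Another HOXB2 probe lacked 1 array in each line and gave -0.16 ± 0.82 and -0.60 ± 0.17 on the other arrays.

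**Figure D2:**
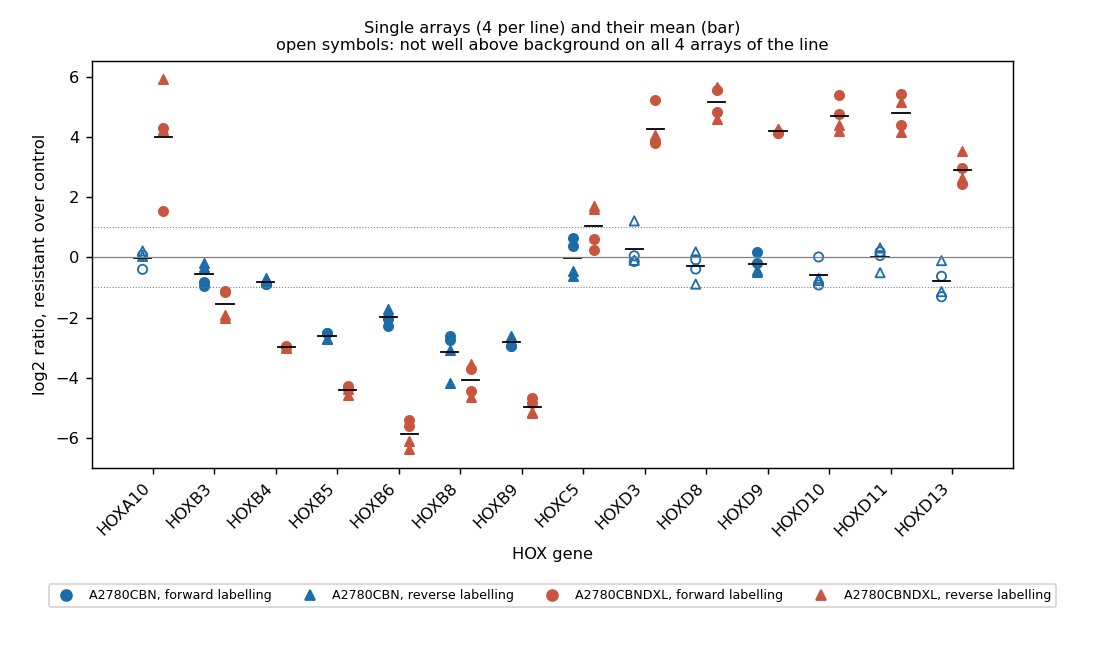
log2 ratio of resistant line over control on each of the 4 arrays of A2780CBN (blue) and A2780CBNDXL (red) for the 14 called HOX genes, with circles for forward and triangles for reverse labelling, a bar at the mean, dotted lines at 2-fold and open symbols where the gene did not pass the background filter in that line. The HOXB genes lie below 0 on all arrays and the HOXD genes of A2780CBNDXL above 2, while HOXC5 splits by labelling and HOXA10 spreads from 1.54 to 5.91.

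The HOXD probes span chr2:176667660-176763677 (NCBI36, plus strand), which is 96.0 kb. In A2780CBN only HOXD9 was measured. In A2780CBNDXL 6 of the 9 genes were measured and all 6 were higher, of which HOXD3, HOXD8 and HOXD13 passed the background filter through the resistant line alone, so that their direction follows from the filter. HOXD1, HOXD4 and HOXD12 did not pass it.

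HOXD9 is the HOXD gene with the cleanest contrast, since it was above background in both channels of all 8 arrays. Its log2 ratios in A2780CBNDXL were 4.14, 4.27, 4.12 and 4.25, a mean of 4.20 ± 0.07 (18.3-fold higher). In A2780CBN they were -0.19, -0.43, 0.17 and -0.49, a mean of -0.23 ± 0.30. The 2 sets did not overlap. In A2780CBN its first array was brighter than the others in both channels, with 655 and 747 against 73.2 to 132 on the other 3, and the ratio there was no different.

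HOXD10 and HOXD11, which pattern the limb and the urogenital tract, were also above background in both channels of all A2780CBNDXL arrays. HOXD10 signals in A2780CBNDXL were 3370, 3960, 3220 and 3440, against 80.2, 189, 120 and 188 in its control, and the log2 ratios were 5.39, 4.39, 4.75 and 4.20. The mean was 4.68 ± 0.53 (25.7-fold higher). HOXD11 signals were 2460, 3050, 2340 and 2330 against 116, 171, 54.5 and 65.6, and the log2 ratios were 4.41, 4.16, 5.42 and 5.15. The mean was 4.78 ± 0.60 (27.6-fold higher). Neither gene was above background in either channel of the A2780CBN arrays, where the mean signals were 5.27 to 11.5.

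HOXD8 read 452, 587, 589 and 524 in A2780CBNDXL against 9.62, 24.6, 20.5 and 10.4 in the control, which was above background on 1 of 4 arrays. Its log2 ratios were 5.55, 4.58, 4.84 and 5.65, a mean of 5.16 ± 0.53 that divides mainly by background and fell to 1.47 with the offset of 50. HOXD3 read 307, 349, 351 and 286 against 8.17, 22, 25.3 and 17.2, with log2 ratios of 5.23, 3.98, 3.79 and 4.06 and a mean of 4.27 ± 0.65. Its control was also above background on 1 array, and its ratio with the offset was 1.02. HOXD13, the last gene of the cluster and a digit patterning gene, read 90.7, 84.9, 98.7 and 77.6 with a control below background on all 4 arrays, and was at least 4.45-fold higher, at a measured log2 ratio of 2.89 ± 0.47. With the offset its ratio was 0.41 and was not called. HOXD4, which lies between HOXD3 and HOXD8, stayed at 9.62 to 19.2 in A2780CBNDXL and was not above background on any array.

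In A2780CBNDXL the control signal was 2.38 to 5.45% of the resistant signal for HOXD10 and 2.33 to 5.6% for HOXD11. For HOXD10 and HOXD11 the control was above background on 4 of 4 A2780CBNDXL arrays and on 0 of 4 A2780CBN arrays. For HOXD3 and HOXD8 it was so on 1 of 4 and on 0 of 4, and for HOXD13 on none of the 8. For HOXD9, above background on all 8, the control of the A2780CBNDXL arrays exceeded that of the A2780CBN arrays by 0.13 ± 1.17 on the log2 scale after scaling between arrays. For HOXD10 and HOXD11 the same control difference was 3.42 ± 0.70 and 3.99 ± 0.58. These sizes rest partly on background, since the control of the A2780CBN arrays was below it. The source of this control signal was not tested.

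**Figure D3:**
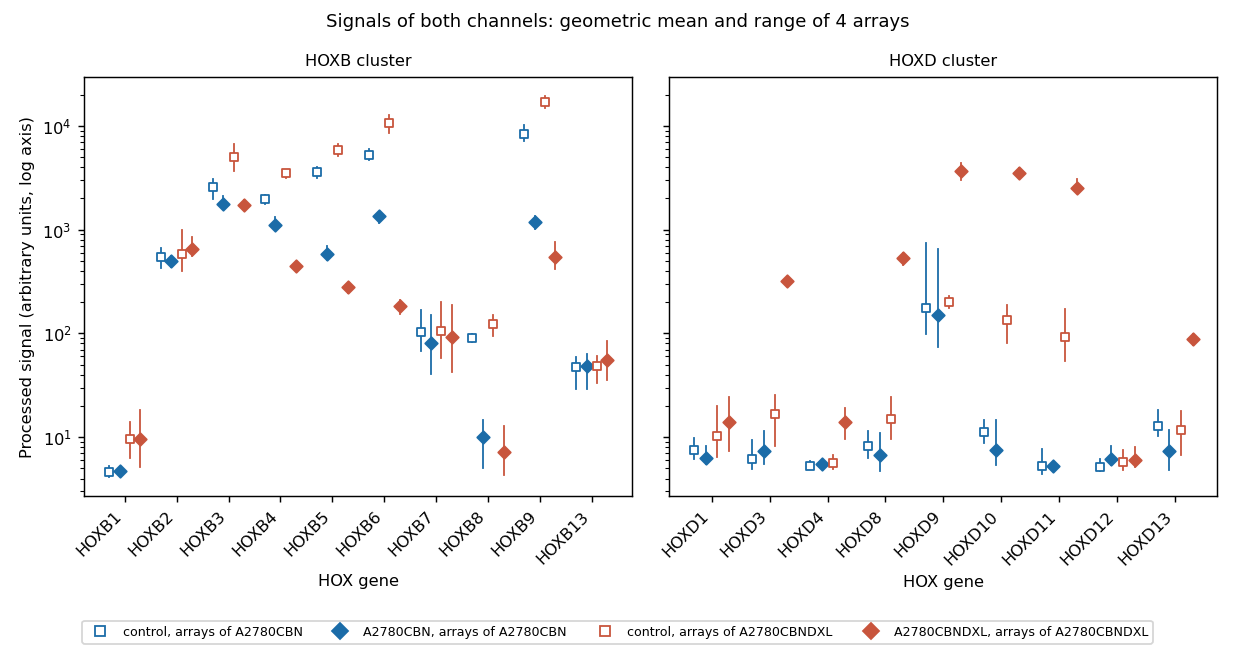
Processed signal of both channels for the HOXB (left) and HOXD (right) genes on a log axis, with open squares for the control, filled diamonds for the resistant line, blue for the arrays of A2780CBN and red for those of A2780CBNDXL, each a geometric mean with the range of 4 arrays. For HOXB4 to HOXB9 other than HOXB7 the diamonds lie below the squares of their own arrays, and for HOXD9, HOXD10 and HOXD11 the red diamonds lie above 2000 while the red squares lie between 54.5 and 227.

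The HOXA cluster on chromosome 7 held 2 measured genes. HOXA10, a regulator of uterine development, was called in A2780CBNDXL with log2 ratios of 4.30, 5.91, 1.54 and 4.23 and a mean of 3.99 ± 1.81. Its signals were 134, 241, 265 and 176, against 6.79, 4.00, 91.2 and 9.40 in the control, so the third array, at 1.54, differs through its control, the only one above background. The other 3 ratios divide by background and no fold is given. In A2780CBN it was below background in both channels on all arrays. A second HOXA10 probe was below background on all 8 arrays, and the call was lost under both other background corrections, at 0.70 with the offset of 50. HOXA3, by its brighter probe, had log2 ratios of 0.01 ± 0.06 and 0.49 ± 0.10, with signals of 76900 to 163000 in the single channels, while its second probe was below background on all 8 arrays. HOXA6 was above background in the control of 1 array of A2780CBN alone.

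The HOXC cluster (chr12:52626301-52734105, plus strand, 108 kb) was measured for HOXC5, HOXC6, HOXC8, HOXC9 and HOXC10. HOXC9 was bright in all channels, with signals from 13300 to 37000, and log2 ratios of 0.15 ± 0.30 in A2780CBN and 0.53 ± 0.11 in A2780CBNDXL. HOXC8 came nearest to a call in A2780CBN, at -0.83 ± 0.06 by one probe and -0.93 ± 0.14 by the other, and in A2780CBNDXL the values were -0.57 ± 0.33 and -0.33 ± 0.15. HOXC10 read 1.13, -0.11, 1.15 and -0.16 in A2780CBN, so that the forward and the reverse arrays gave different answers, and a second HOXC10 probe split the same way. HOXC6 gave 0.17 ± 0.44 and 0.43 ± 0.55 by the reassigned probe and 0.27 ± 0.71 and 0.61 ± 0.67 by the other. HOXC5 was called in A2780CBNDXL at 1.04 ± 0.73, just past the limit, from arrays of 0.23, 1.70, 0.61 and 1.60. Its control was above background on 3 of 4 arrays there, so HOXC5 passed the filter through the resistant line alone. HOXC5 was lost under 7 of 17 alternatives, which were both other background corrections, both channels above background, the 3-fold limit, the third array left out, slide 1 alone, and the control of the other line (0.95 ± 0.43).

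By paralogue group, the clusters did not move together in groups 9 and 10, judged by the genes measured in both channels. In group 9, HOXB9 was lower and HOXD9 higher in A2780CBNDXL, HOXC9 had a log2 ratio of 0.53, and HOXA9 was below background. In group 8, HOXB8 was lower and HOXD8 higher, but the background filter fixed both directions, and HOXC8 stood at -0.57. In group 10, HOXD10 was higher and HOXC10 stood at -0.04. HOXA10 was also higher there, again in a direction that the filter fixed.

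The lines were then set against each other by the difference of their log2 ratios, A2780CBNDXL minus A2780CBN, called at 1 or more in size where the arrays of the lines did not overlap. Of the 22 HOX genes measured in either line, 4 were lower in A2780CBNDXL (18.2%), beside 11.2% of all 18135 genes, and 7 were higher (31.8%), beside 6.86%. The lower genes were HOXB6 at -3.91, HOXB9 at -2.17, HOXB4 at -2.15 and HOXB5 at -1.79. HOXB3 at -0.99 fell just short of the limit, and HOXB8 at -0.94 overlapped and rests on bounds. The higher genes were HOXA10, HOXD3, HOXD8, HOXD9, HOXD10, HOXD11 and HOXD13. Of these only HOXD9 had a measured ratio in both lines, with a difference of 4.43. The others were below background in both channels of the A2780CBN arrays, so no size of their difference is given.

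Both channels entered the HOXB differences. On scaled signals, the resistant line itself was lower in A2780CBNDXL than in A2780CBN by -3.02 ± 0.45 for HOXB6, -1.46 ± 0.38 for HOXB4, -1.26 ± 0.67 for HOXB9 and -1.20 ± 0.20 for HOXB5 on the log2 scale. For HOXB3 this difference was -0.18 ± 0.40. The control on the A2780CBNDXL arrays was higher than that on the A2780CBN arrays by 0.91 ± 0.27 for HOXB9, 0.89 ± 0.24 for HOXB6, 0.81 ± 0.48 for HOXB3, 0.70 ± 0.31 for HOXB4 and 0.59 ± 0.22 for HOXB5. With the control channels exchanged, HOXB9 stood at -3.70 ± 0.43 in A2780CBN and -4.06 ± 0.50 in A2780CBNDXL, and HOXB6 at -2.86 ± 0.13 and -4.99 ± 0.21. All 11 differences were also called when the resistant channels were compared directly.

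Probes around the clusters were taken by their coordinates within 500 kb. Inside the HOXD cluster 5 of 6 other probes were measured in A2780CBNDXL and 4 were higher, beside 7.69% of all genes. The 4 were an unnamed probe at chr2:176728667-176728726 at 3.92 ± 0.29, LOC401021 at 3.12 ± 0.40, BE798911 (at least 5.53-fold) and ENST00000313266 on the other strand at 1.51 ± 0.20. Of these only the unnamed probe had both channels above background on all arrays. The others passed the filter through the resistant line alone, so their direction follows largely from the filter. Their control was above background on 2 of 4 arrays for LOC401021, 0 for BE798911 and 3 for ENST00000313266. The fifth, LOC401022, read 0.01 ± 0.07. In A2780CBN the unnamed probe was lower, at -1.40 ± 0.27, as 1 of 3 measured, with the resistant line above background on 1 of 4 arrays. Of 9 probes measured outside the cluster in A2780CBNDXL, 2 were higher, both of LOC375295, and 2 were lower, beside 7.69% and 9.12% of all genes. Outside the cluster, MTX2, a mitochondrial import gene 146.8 kb away, read -0.07 ± 0.21, and the 4 probes of KIAA1715, from 165.2 to 170.6 kb on the other side, read from -1.01 to -0.40. An unnamed probe 77.6 kb outside read -6.31 ± 0.44, and LOC375295, 439.2 kb away, read 5.52 ± 0.24 and 4.77 ± 0.20 by its probes.

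Inside the HOXB cluster 1 of the 5 other probes measured in A2780CBNDXL was called, and it was higher. This unnamed probe at chr17:44068136-44068195, between HOXB9 and HOXB13, was at least 8.30-fold higher in A2780CBNDXL and at least 3.11-fold higher in A2780CBN, with its control below background on all 8 arrays. Outside the cluster 0 probes were higher and 1 lower of 16 measured in A2780CBNDXL, beside 7.69% and 9.12% of all genes. In A2780CBN 5 were higher and 1 lower of 20, beside 7.92% and 4.56%. The 5 were all probes of CALCOCO2 or NFE2L1, so they stand for fewer genes, whereas the shares count 1 probe per gene. PRAC, a prostate and bowel transcript beside HOXB13, read -0.31 ± 0.32 and -0.17 ± 0.13. SKAP1, an adaptor of immune cells 397.0 kb beyond HOXB1, was above background in the control alone and was at least 1.48-fold lower in A2780CBN and at least 3.79-fold lower in A2780CBNDXL. CALCOCO2, an autophagy receptor 137.0 kb from the other end, was higher in A2780CBN at 1.63 ± 0.11 and read -0.28 ± 0.06 in A2780CBNDXL.

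At the other clusters, SKAP2 (424.1 kb from the HOXA cluster), an adaptor related to SKAP1, was higher in A2780CBNDXL at 2.10 ± 1.07. It passed the filter there through the resistant line alone, with the control above background on 1 of 4 arrays. EVX1, the homeobox gene beside HOXA13, read 0.00 ± 0.29 and 0.58 ± 0.12. Within HOXC, a probe for the transcript BC035260 on the minus strand was lower in both lines, at -1.35 ± 0.25 and -1.05 ± 0.29, and HOTAIR, a long non-coding RNA, was below background. Of the list of 23 neighbouring genes on the array, 3 were higher and 1 lower in A2780CBN, and 1 higher and 4 lower in A2780CBNDXL, of 21 measured in each, beside the shares over all genes of 7.92 and 4.56%, and of 7.69 and 9.12%. SNX10, a sorting nexin, was higher in A2780CBN at 1.29 ± 0.36 and lower in A2780CBNDXL at -1.33 ± 0.41.

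**Figure D4:**
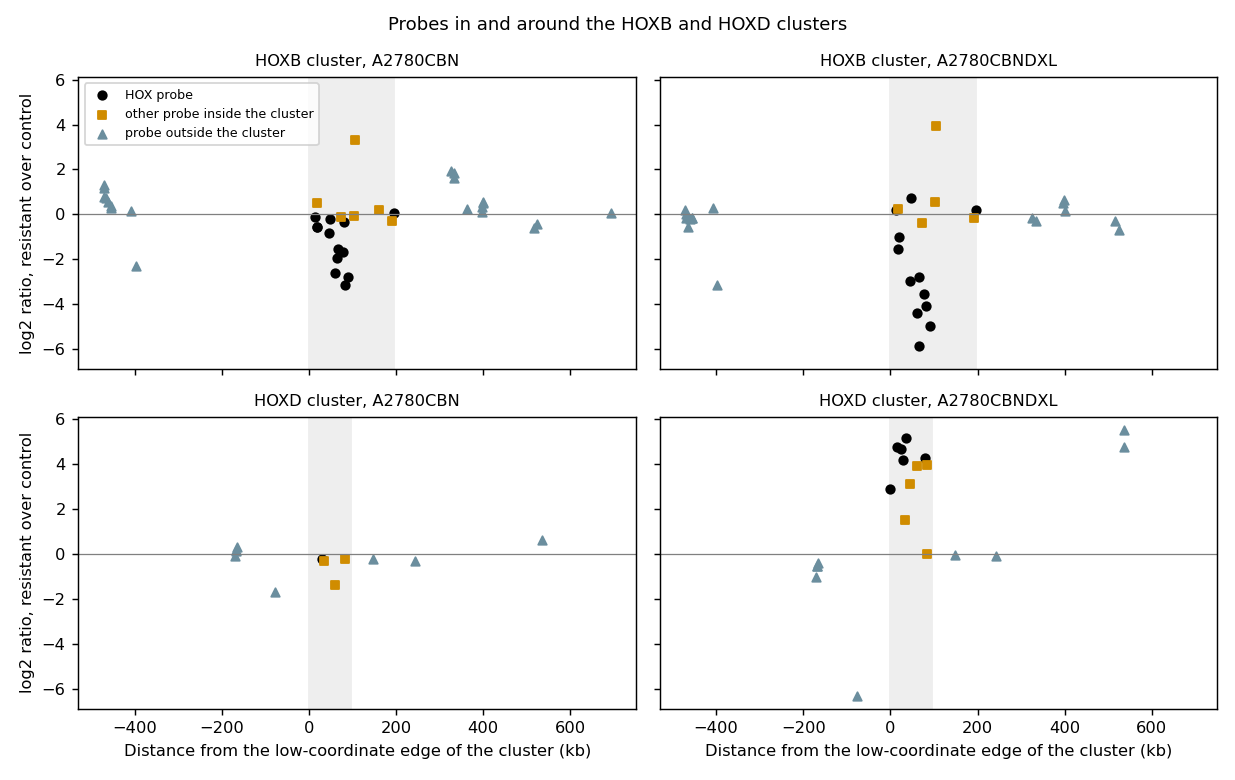
log2 ratio of every measured probe from 500 kb before to 500 kb after the HOXB (upper) and HOXD (lower) clusters against distance from the low-coordinate edge of the cluster in kb, for A2780CBN (left) and A2780CBNDXL (right). Black circles are HOX probes, orange squares other probes inside the cluster (grey band) and blue triangles probes outside it; in A2780CBNDXL the HOXD probes and 4 of the 5 orange squares lie above 1, and MTX2 outside it lies at -0.07.

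For the genes that act with or upon the HOX clusters, the counts of called genes stand beside the shares over all genes of 7.92% higher and 4.56% lower in A2780CBN and of 7.69% higher and 9.12% lower in A2780CBNDXL. Of the 9 TALE cofactors, 2 were higher and 1 lower in A2780CBN, where 9 were measured, and 1 was higher and 1 lower in A2780CBNDXL, where 8 were. PKNOX2 was higher in A2780CBN at 2.61 ± 1.5, where it passed the filter through the resistant line alone, with the control above background on 2 of 4 arrays. In A2780CBNDXL it failed the filter, also with the control above background on 2 of 4 arrays. MEIS3 was lower in both lines, at -1.08 ± 0.64 and -1.65 ± 0.36. MEIS1 was higher in A2780CBN at 1.46 ± 0.16 and read 0.64 ± 0.12 in A2780CBNDXL. The median log2 ratios of this list were 0.25 and 0.40, beside -0.06 and 0.04 for all genes.

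Of the Polycomb genes, 2 of 25 measured were higher and 0 lower in A2780CBN, and 1 of 26 was higher and 1 lower in A2780CBNDXL, with medians of -0.03 and -0.02. CBX7, a reader of the Polycomb mark, was higher in A2780CBN at 1.22 ± 0.22 and lower in A2780CBNDXL at -1.25 ± 0.18. PCGF5, a Polycomb ring finger protein, was at least 3.26-fold higher in A2780CBN, where it passed the filter through the resistant line alone. EZH2, which writes the mark, read -0.03 ± 0.41 and -0.86 ± 0.31. Of the MLL and trithorax genes, 1 of 18 was lower in A2780CBN (MLLT3 at -2.43 ± 0.55, a reader found in MLL fusions) and 1 of 19 in A2780CBNDXL (KDM6A at -1.08 ± 0.18, which removes the Polycomb mark), and 0 were higher in either line. MLLT3 was above background in the resistant line on 1 of 4 A2780CBN arrays, so it passed the filter there through the control alone. In A2780CBNDXL MLLT3 read 0.50 ± 0.16, and the medians of this list were -0.06 and 0.21.

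The retinoic acid list held 2 higher and 2 lower genes of 12 measured in A2780CBN, and 3 higher and 2 lower of 14 in A2780CBNDXL, with medians of -0.05 and 0.55. ALDH1A1, which makes retinoic acid, was lower in both lines, at -4.54 ± 0.66 and -5.14 ± 1.1. Its resistant channel was above background on 1 of 4 arrays in each line. ALDH1A1 thus passed the filter through the control alone, and these sizes rest largely on background. ALDH1A3, an enzyme of the same step, was higher in both, at least 7.91-fold in A2780CBN and by 2.52 ± 0.58 on the log2 scale in A2780CBNDXL. Its control was above background on 3 of 4 A2780CBNDXL arrays and on 0 of 4 A2780CBN arrays. ALDH1A3 thus passed the filter through the resistant line alone in each line. RDH10, which oxidises retinol, was lower in A2780CBN at -2.05 ± 0.18 and read 0.87 ± 0.12 in A2780CBNDXL.

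Among the homeobox genes related to HOX, 5 were measured in each line and 2 were lower in each, with 0 higher and medians of -0.21 and -0.42. The shares of all genes that were lower were 4.56% in A2780CBN and 9.12% in A2780CBNDXL. CDX2, an intestinal factor known to act on HOX genes, read -1.92 ± 0.13 in A2780CBN and was at least 8.29-fold lower in A2780CBNDXL. MEOX1, a somite gene, read -1.73 ± 0.32 and was at least 7.64-fold lower. In A2780CBN both genes were above background in both channels on all arrays. In A2780CBNDXL both passed the filter through the control alone, so their direction there follows from the filter.

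The markers fixed for the labelled cell type were partly present. Counts of called markers stand beside the shares over all genes, 7.92% higher and 4.56% lower in A2780CBN. In A2780CBNDXL these shares were 7.69% higher and 9.12% lower. Of 11 ovarian carcinoma markers on the array 7 were measured in A2780CBN and 6 in A2780CBNDXL, and PAX8, EPCAM, KRT8, KRT18, MUC1 and VIM were measured in both. Higher were 3 in A2780CBN (EPCAM at 2.07 ± 0.30, VIM at 1.08 ± 0.67 and KRT18 at 1.05 ± 0.16) and 1 in A2780CBNDXL (EPCAM at 1.67 ± 0.24), with 0 lower in either. The EPCAM control was above background on 3 of 4 A2780CBNDXL arrays, so EPCAM passed the filter there through the resistant line alone. The markers WT1, KRT7, MUC16 and CDH1 were below background on all arrays. Of the other cell types, all 3 endothelial markers failed the background filter. PTPRC, which marks leukocytes, was below background throughout, and of the 4 leukocyte markers 0 of 2 measured were called in A2780CBN and 1 of 3 was lower in A2780CBNDXL. Of the 4 fibroblast markers 1 was higher and 1 lower of 3 measured in A2780CBN, and 3 were higher and 1 lower of 4 in A2780CBNDXL. The fibroblast markers moved in both directions, with DCN higher at 2.21 ± 0.46 and 3.62 ± 0.29 and COL1A2 lower at -5.67 ± 0.15 and -2.81 ± 0.07. In A2780CBN COL1A2 was above background in the resistant line on 1 of 4 arrays, so its size there rests largely on background. COL1A1 (2.04 ± 0.20) and FAP (at least 3.25-fold, measured through the resistant line alone) were also higher in A2780CBNDXL. The part of these marker differences in the HOX values was not tested.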

How the data were processed

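RNA of each resistant line and of its control was labelled with different dyes and hybridized to arrays of 60-base probes. The authors deposited Agilent Feature Extraction output (10.7.1.1 for slide 1, 10.7.3.1 for slide 2) with NCBI36 coordinates, in which the processed intensity of each channel is background-subtracted and dye-normalized. Raw mean and background-subtracted intensities served for alternatives alone. Outlier spots were dropped, 0 spots were saturated, and the share of spots well above background ran from 59.8 to 67.5% over the channels. The number of arrays limits the precision.

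Forward arrays carry the control in Cy3 and the resistant line in Cy5. The dye entries of the reverse arrays repeat the forward ones, against their name, and these arrays were turned over as named, after which forward and reverse log2 ratios of a line correlated at 0.58 to 0.74 over all probes. Every sign rests on this.

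Repeated spots of a probe were averaged. Among the probes of a gene with a value on all 8 arrays, that of highest mean signal stood for the gene. A line's log2 ratio is the mean of its forward mean and its reverse mean. Bounds and comparisons of channels between arrays used Aquantile scaling. Of the 53 HOX probes, 51 matched a RefSeq accession. Promoters are RefSeq's, for GRCh38.p14, and were matched by symbol.

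All HOX genes are named, with values by array for those called; of other lists, at most 4 called genes each, the largest first. Of the single-array values, HOXB7 and HOXC10 are exceptions chosen after their values were seen, as are probes named by position and EZH2. The members, lists and rules were chosen with earlier results of these data known. Alternatives were another background correction, signals centred on the median, arrays or slides left out, other filters and fold limits, the mean over probes, the exchanged control, limma and the methods' analysis of variance. Gene names as deposited, and all probes within 500 kb, were added after seeing the data. The steps were tested on simulated data. Python 3.11.15 with pandas 2.3.3, numpy 2.4.6 and matplotlib 3.10.9 was used, and R 4.3.3 with limma 3.58.1. The A2780DXL arrays were not analysed here, and some genes of the lists are not reported here.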

Additional observations from a re-analysis of the deposited data

Results flagged for a closer look

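Of 83 probes looked at, 8 that passed the background filter in both lines had all arrays of A2780CBN on one side of 0 and all arrays of A2780CBNDXL on the other. The share of all array probes that split in this way is not given here, so the count is not read as a result about these probes. The differences, given as A2780CBNDXL minus A2780CBN on the log2 scale, were not tested. The HOX probe among them was the dim HOXB4 probe at 0.93. HOXD13 split by sign in the same way, but it was below background on the A2780CBN arrays and is not among the 8. Inside the HOXD cluster were the unnamed probe at chr2:176728667-176728726 at 5.32, which was lower than its control in A2780CBN at -1.40 ± 0.27, and ENST00000313266 at 1.83. The others were RDH10 at 2.93, MLLT3 at 2.92, CALCOCO2 at -1.91, CBX7 at -2.47 and SNX10 at -2.62.

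In 105 sets of 4 arrays, 3 held an array that stood apart from the rest, where chance gives about 1 in 20 sets. All were in A2780CBN. One array of the HOXB6 homeodomain probe read -1.37, one of the unnamed probe in the HOXB cluster read 2.45, and one of the unnamed HOXD probe read -1.81.

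The second HOXB7 probe does not stand for its gene in the counts. It was lower in both lines, at -1.69 in A2780CBN and -3.55 in A2780CBNDXL, and it passed the background filter through the control alone.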

How the results depend on the processing

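In A2780CBN 4 HOX genes were called and in A2780CBNDXL 14, and 11 differed between the lines. Leaving out 1 array gave 4 to 4, 13 to 14 and 11 to 12, and HOXC5 was lost without the third array. With the control of the other line the count in A2780CBN was 8, as HOXB3, HOXB4, HOXD10 and HOXD11 joined the lower genes. With both channels required above background the counts were 8 in A2780CBNDXL, of 3 higher and 5 lower genes against 8 and 6, and 7 between the lines, of 3 and 4 against 7 and 4, since genes seen in 1 channel drop out by construction. Under normexp with an offset of 50 they were 10 in A2780CBNDXL (5 and 5) and 8 between the lines (4 and 4), and all genes called on the array were 607 against 2269 in A2780CBN, 1189 against 2924 in A2780CBNDXL and 1293 against 3282 between the lines. All genes called were 4914, 5776 and 5813 at 1.5-fold, and 1127, 1476 and 1856 at 3-fold. Single-slide, limma and analysis of variance counts stayed within 1.5 times. HOXB5, HOXB6 and HOXB9 kept their calls in all 17 alternatives in both lines, as did HOXB4, HOXD9, HOXD10 and HOXD11 in A2780CBNDXL. Between the lines HOXB4 was lost with the mean over probes and HOXD11 with signals centred on the median, where 8 genes were called (3 higher and 5 lower). No log2 ratio of a called HOX gene changed sign.

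No paired analysis was possible because each line is 1 sample, so the groups share fewer than 2 replicate numbers.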
